A study of Mus musculus with 12 samples.

Results

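The phagocyte NADPH oxidase was described through 6 genes, chosen by symbol: the membrane subunits Cybb and Cyba, the cytosolic subunits Ncf1 and Ncf4, and the GTPases Rac2 and Rac1. All 6 were found among the 17358 genes of the table, and all 6 were among the 9550 genes that passed the filter on low counts. The libraries were made from brain perivascular macrophages, which sit between cerebral vessels and the brain tissue, of C57BL mice. Mice aged 18 months gave 5 libraries and young adults aged 3 months gave 7, which the series text calls biological replicates. How the cells were isolated, their sex, any batch and the number of cells or animals behind a library are not stated, and lysis followed a single-cell protocol. P-values therefore measure the spread between these libraries.

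The phagocyte oxidase moves electrons from NADPH across a membrane to oxygen and so makes superoxide, the starting point of the respiratory burst. In resting cells the membrane heterodimer and the cytosolic subunits are apart. On stimulation the cytosolic subunits are phosphorylated, move to the membrane together with a GTP-bound Rac, and switch the enzyme on. In brain macrophages and microglia the complex is known both for killing of microbes and as a source of oxidants in ageing and disease.

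Library totals ranged from 23214816 to 30505439 estimated counts in aged and from 25864088 to 30628789 in young libraries. All 22 markers of perivascular macrophages were tested, 14 with positive and 8 with negative log2 fold changes, and they summed to 19130 to 27990 normalised CPM in aged and 16820 to 27270 in young libraries (CPM are counts scaled to the library total with TMM factors). Mrc1, the mannose receptor, was at 2575 ± 342 in aged libraries and 2229 ± 444 in young ones (SD, n = 5 and n = 7), and Clec4n, a lectin receptor gene, at 722 ± 89.1 against 1066 ± 203. The neutrophil markers, from a cell type rich in this oxidase, summed to between 50.4 and 248 normalised CPM in aged and between 52.5 and 158 in young libraries. Of 18 listed, 5 were tested, all 5 with positive log2 fold changes and none called. The highest means of that list were those of Cxcr2, at 68.3 ± 41.2 in aged and 43.7 ± 13.4 in young libraries, and Csf3r, at 36.5 ± 29.5 against 34.5 ± 32.1. S100a8 and Ngp reached 17.4 and 17.5 in aged libraries and 8.2 and 9.5 in young ones. The neutrophil surface gene Ly6g was at most 0.05 normalised CPM in aged libraries and at 0 in the 7 young ones. Choroid plexus markers separated the ages, with sums of 256 to 1314 in aged and 63.2 to 177 in young libraries. Of 7 listed, 4 were tested and all 4 were positive, and Folr1 was at 0 in all young and in 4 of 5 aged libraries. Kcnj13, at 0 in 6 of 7 young libraries, passed the filter mostly through aged ones, so its sign is no added support. The carrier protein gene Ttr, at 595 ± 376 in aged libraries and 93.0 ± 34.8 in young ones, was the only gene of the table to pass (adjusted p = 0.0297, edgeR). Dendritic cell markers summed to 1306 to 2543 in aged and 424 to 2192 in young libraries. Most of that sum was Cd209a, at 1947 ± 490 in aged libraries and 916.5 ± 756 in young ones. Of 9 listed, 3 were tested, 2 positive and 1 negative, and Flt3, Clec9a and Itgae were at most 0.15 in any library. Others were present at low levels, with Zbtb46 at 14.2 ± 10.8 in aged and 10.2 ± 9.56 in young libraries. Xcr1 reached 21.6 in aged and 4.22 in young libraries, and Batf3 20.45 and 14.2. The part of these cell types in the oxidase differences was not tested. Aged libraries 1, 3 and 4 stood apart, with scores from −146 to −129 on the first principal component (15.5% of the variance) against −24.8 to 93.3 in the other libraries. The 6 genes and their ratios are therefore also given without those 3, as are pathway genes whose log2 fold change moved by over 1.5 times. On the second component young library 1 stood apart, at 210.9 against −113.3 to 76.4 in the other libraries. Among young libraries it held the lowest Cybb and Ncf1 levels and the highest Cyba and Ncf4 levels.

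The 6 genes differed in the direction of their mean difference between ages. Rac2, Ncf4 and Cyba were at lower mean levels in aged libraries, Cybb and Rac1 were close to their young levels, and Ncf1 had a higher mean in aged libraries. None of the 6 passed the edgeR quasi-likelihood test at an adjusted p under 0.05, a threshold that 0.0105% of all tested genes passed (1 gene, Ttr). At an unadjusted p under 0.05 there were 2 of 6, Rac2 and Cyba, against 5.97% of all tested genes. DESeq2 on the same genes called 0 of 6 (1.27% of its genes called) and limma with voom weights 0 of 6 (0.0105% called), and limma-trend on log2(FPKM + 1) 0 of 6 (0.0314% called). Of the 6 log2 fold changes 4 were negative, with a median of −0.46, against 50.5% negative and a median of −0.01 over all tested genes.

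**Figure D1:**
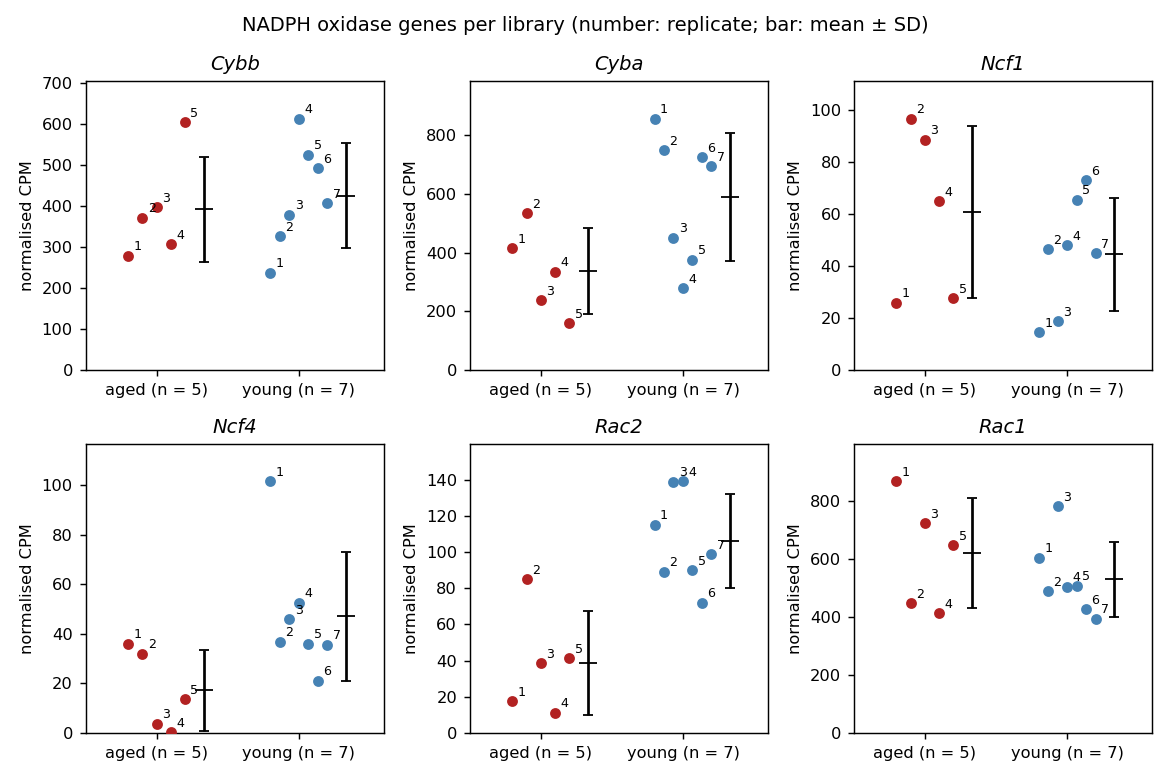
Normalised CPM (vertical axis) of the 6 oxidase genes in each of the 5 aged and 7 young libraries, with the replicate number beside each point and the mean ± SD as a bar. For Rac2 the aged libraries 1, 3, 4 and 5 lie below all young libraries and aged library 2, at 84.9, lies among them, while the groups of Cybb, Ncf1 and Rac1 overlap widely.

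The membrane pair was described first. Cybb encodes the catalytic subunit, which carries the haem and flavin groups that pass the electrons. Cyba encodes its smaller partner, which stabilises the catalytic subunit and offers the docking site for the cytosolic organiser. Promoter windows from RefSeq (GRCm38.p6, 250 bases before to 50 bases after an annotated transcript start, all on the minus strand and read 5′ to 3′) were used for 3 of the 6 genes, Cybb, Cyba and Ncf1. The start used for Cyba is the end of its gene model, and that for Ncf1 lies 3 bases inside it. The start used for Cybb, at 9469324, lies 18442 bases inside the gene model, which includes a longer transcript. They are shown side by side because the subunits they encode meet in 1 complex. Capitals mark matches on either strand to 4 short motifs: GAGGAA, a core bound by the myeloid factor PU.1, a composite ETS and interferon regulatory factor motif (GGAA and GAAA spaced by any 2 bases), CCAAT, and the GC box GGGCGG.
Cybb, chrX:9469275-9469574: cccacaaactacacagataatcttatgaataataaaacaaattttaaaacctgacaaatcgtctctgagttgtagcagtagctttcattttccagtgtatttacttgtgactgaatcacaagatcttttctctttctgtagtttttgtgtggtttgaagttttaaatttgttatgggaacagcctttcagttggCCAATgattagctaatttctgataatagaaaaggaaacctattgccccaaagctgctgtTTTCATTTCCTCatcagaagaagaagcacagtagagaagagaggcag
Cyba, chr8:122432891-122433190: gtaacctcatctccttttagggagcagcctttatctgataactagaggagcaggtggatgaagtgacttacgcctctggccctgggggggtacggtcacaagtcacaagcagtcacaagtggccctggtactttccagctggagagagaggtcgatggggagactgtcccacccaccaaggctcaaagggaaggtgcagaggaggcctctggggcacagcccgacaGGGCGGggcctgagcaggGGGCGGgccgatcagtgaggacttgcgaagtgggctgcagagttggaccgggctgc
Ncf1, chr5:134229576-134229875: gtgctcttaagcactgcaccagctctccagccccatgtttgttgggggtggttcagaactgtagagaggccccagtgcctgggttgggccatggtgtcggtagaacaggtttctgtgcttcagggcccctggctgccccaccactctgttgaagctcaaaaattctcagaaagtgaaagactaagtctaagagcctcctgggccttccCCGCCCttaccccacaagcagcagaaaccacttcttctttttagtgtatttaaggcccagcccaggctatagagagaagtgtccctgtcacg

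Counted from that start, with the first transcribed base as 1, the Cybb window held CCAAT at positions −56 to −52. It held a composite match at 4 to 13, which overlaps a GAGGAA match at 10 to 15, both on the opposite strand. The Cyba window held GGGCGG at −24 to −19 and at −6 to −1, and the Ncf1 window held it once, on the opposite strand, at −42 to −37. Of all 32851 RefSeq windows of this length, 2.72% held the composite, 28.3% GAGGAA, 37.4% CCAAT and 35.7% GGGCGG on either strand. A match is a run of letters only, and its absence says nothing of a factor. PU.1 and interferon regulatory factors are known from human cells to act on the CYBB promoter. In these libraries Spi1, which encodes PU.1, was at 85.6 ± 44.9 normalised CPM in aged libraries and 95.9 ± 69.5 in young ones, and Irf8 at 51.3 ± 48.4 against 41.0 ± 31.9. Both are named here for their roles.

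Cybb (Entrez 13058, chromosome X from 9435252 to 9487766) was at 279, 372, 397, 308 and 605 normalised CPM in aged libraries 1 to 5, against a lowest value of 238, a median of 407 and a highest value of 613 in young libraries. The groups overlapped over nearly their whole range. The means were 392 ± 128 in aged libraries and 426 ± 127 in young ones. The log2 fold change of Cybb was −0.12 ± 0.26 (SE), with an adjusted p of 0.999 with edgeR, and it was 0.19 without aged libraries 1, 3 and 4.

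Cyba (Entrez 13057, chromosome 8 from 122424771 to 122432940) was at 415, 533, 238, 335 and 160 normalised CPM in aged libraries 1 to 5. The young libraries had a lowest value of 279, a median of 693 and a highest value of 855. All 5 aged libraries lay below the young median, and aged libraries 3 and 5 lay below every young one. The mean was 336 ± 146 in aged libraries and 589 ± 218 in young ones, 0.57 times as high. The log2 fold change of −0.81 ± 0.33 had an adjusted p of 0.631 with edgeR, lay between −1.03 and −0.65 under 22 alternative settings, and was −0.755 with aged libraries 1, 3 and 4 left out. Cyba is also high in microglia, and of 14 tested microglia markers 12 had negative log2 fold changes. Of those 12, Slc2a5, Tmem119 and Sall1 were low in aged libraries, with means of 1.56, 2.41 and 4.59 normalised CPM. The 2 positive ones were Siglech, at 570 ± 94.2 in aged and 403 ± 82.1 in young libraries, and Gpr34, at 1244 ± 413 against 1107 ± 238. The 14 markers summed to between 4407 and 6908 normalised CPM in aged and between 4478 and 8480 in young libraries. None was at 0 in all libraries, and the part of these markers in the Cyba difference was not tested. The protein-coding gene model Gm20388, on the opposite strand, spans the Cyba locus and was not analysed here. The library chemistry does not mark the strand, so its reads and those of Cyba cannot be told apart where exons overlap. Only whole gene spans were compared, and overlap of exons was not examined. The same limit applies to the opposite-strand overlaps of Ncf1 and Rac1 given below.

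The cytosolic subunits came next. Ncf1 encodes the organiser, which is held folded in resting cells and on phosphorylation bridges the complex to Cyba. Ncf1 (Entrez 17969, chromosome 5 from 134220053 to 134229628) was at 26.0, 96.6, 88.5, 64.8 and 27.7 normalised CPM in aged libraries 1 to 5, against a lowest value of 14.5, a median of 46.5 and a highest value of 73.0 in young libraries. Aged libraries 2 and 3 were above every young library, and aged libraries 1 and 5 were in the lower part of the young range. The means of 60.7 ± 33.1 in aged libraries and 44.5 ± 21.7 in young ones gave a log2 fold change of 0.45 ± 0.53 (adjusted p = 0.999, edgeR), and of 0.49 with aged libraries 1, 3 and 4 left out. Gtf2ird2, which overlaps the Ncf1 locus by 4303 bases on the opposite strand, was at 5.22 normalised CPM in aged libraries and 3.88 in young ones.

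Ncf4 encodes the subunit that binds phosphatidylinositol 3-phosphate on phagosome membranes. Ncf4 (Entrez 17972, chromosome 15 from 78244164 to 78262582) was at 36.0, 32.1, 3.70, 0.287 and 13.7 normalised CPM in aged libraries 1 to 5, and aged library 4 held only 6 counts of it. In young libraries the lowest value was 21.1, the median 36.8 and the highest 102, the last in young library 1. Aged libraries 3, 4 and 5 lay below every young library, and aged libraries 1 and 2 were just under the young median. The means were 17.1 ± 16.2 in aged libraries and 47.1 ± 25.9 in young ones. The log2 fold change of −1.46 ± 0.86 did not pass (adjusted p = 0.999, edgeR). It was −1.03 with aged libraries 1, 3 and 4 left out.

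The Rac GTPases complete the active enzyme. Rac2 is the form largely restricted to blood cells and Rac1 the form found in nearly all cells, and both also steer the actin cytoskeleton. Rac2 (Entrez 19354, chromosome 15 from 78559169 to 78572783) was at 17.5, 84.9, 38.4, 11.1 and 41.1 normalised CPM in aged libraries 1 to 5. The young libraries ran from 71.9 over a median of 98.8 to 139. Aged libraries 1, 3, 4 and 5 lay below every young library, and aged library 2 alone lay within the young range. The mean of 38.6 ± 29.0 in aged libraries was 0.364 times that of 106 ± 25.8 in young ones.

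The log2 fold change of Rac2 was −1.46 ± 0.47 (SE). The unadjusted p was 0.00619 and the adjusted p 0.399 with edgeR, so Rac2 was not called. The adjusted p was 0.0633 without aged library 2 and between 0.424 and 0.714 without any other library. DESeq2 gave an adjusted p of 0.085 on the same genes and 0.0315 with no filter on low counts, the only setting that called Rac2 (3.44% of its genes called). With aged libraries 1, 3 and 4 left out, Rac2 had a log2 fold change of −0.75. Rac2 is also known in lymphocytes, and 14 lymphocyte markers were listed, of which 12 were in the table and 4 were tested, all 4 with negative log2 fold changes. Among the tested ones, Nkg7 and Cd8a had young means of 6.05 and 3.07 but aged means of only 0.29 and 0.43. Such genes can pass the filter mostly through young libraries, so the signs of Nkg7 and Cd8a are no added support. The 12 summed to 10.5, 31.5, 5.25, 1.197 and 18.1 normalised CPM in aged libraries 1 to 5, against between 6.70 and 95.5 in young libraries. Of these markers Ncr1 was at 0 in all aged libraries and Ms4a1 in all young ones, and Cd3e was at most 0.27 in aged and 1.05 in young libraries. Cd79b had the highest mean of the list, at 10.6 ± 12.5 in aged and 24.8 ± 30.3 in young libraries, with a highest young value of 89.9. Nkg7 and Cd2 reached 29.7 and 21.1 in young libraries and 0.57 and 0.16 in aged ones. The part of lymphocyte RNA in the Rac2 difference was not tested. In bulk samples fewer cells of a type and less RNA per cell cannot be told apart.

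Rac1 (Entrez 19353, chromosome 5 from 143505481 to 143528031) was at 866, 447, 722, 412 and 647 normalised CPM in aged libraries 1 to 5, against a lowest value of 393, a median of 503 and a highest value of 781 in young libraries. The groups overlapped, with aged library 1 above and young library 7 below all others. The means of 619 ± 190 in aged libraries and 528.5 ± 130 in young ones gave a log2 fold change of 0.23 ± 0.23 (adjusted p = 0.999, edgeR), and of 0.04 with aged libraries 1, 3 and 4 left out. Daglb overlaps Rac1 by 2309 bases on the opposite strand and was at 73.4 normalised CPM in aged libraries and 104 in young ones.

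**Figure D2:**
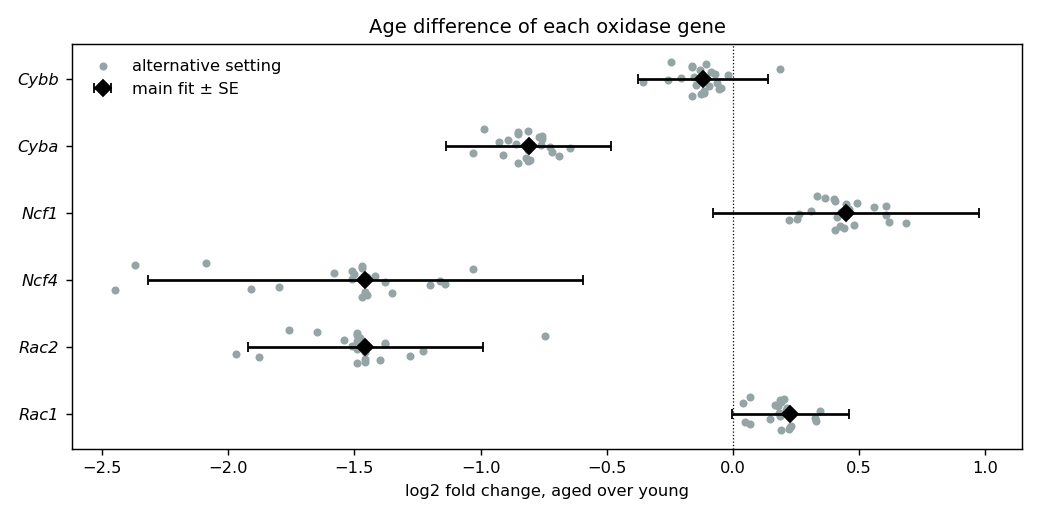
Log2 fold change, aged over young, of each oxidase gene (horizontal axis), with the edgeR estimate ± SE as a black diamond and 22 alternative settings as grey points. Rac2, Ncf4 and Cyba lie left of 0 under each setting run, Ncf1 and Rac1 lie right of 0 under each, and Cybb lies at −0.12 with a point on the other side, at 0.19.

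Ratios within a library do not depend on the scaling between libraries. Counts were divided by transcript length, and 3 ratios were compared between ages by exact permutation (two-sided, 792 arrangements of the age labels), with p adjusted over the 3. The Rac pair was included with the lower Rac2 level already known. Rac2 per length came to 1.5%, 14.1%, 3.95%, 2.0% and 4.72% of Rac1 in aged libraries 1 to 5. In the young libraries it came to between 12.5% and 20.5%, with a median of 13.6%. The young libraries thus lay in a narrow band, 4 of the 5 aged libraries lay below it, and aged library 2 lay inside it.

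The log2 Rac2 to Rac1 ratio was −4.72 ± 1.26 in aged and −2.75 ± 0.278 in young libraries (SD), a difference of −1.97, or 0.256 times the young ratio (exact two-sided permutation p = 0.0126, adjusted p = 0.0379). Since the Rac2 level was known, this is no independent evidence of its direction. With aged libraries 1, 3 and 4 left out the difference was −0.87 (exact permutation, adjusted p = 0.278). That setting leaves too few arrangements for the test to reach 0.05 whatever the values, so it cannot decide whether the call holds. Of the libraries left out singly, the adjusted p by the same exact test was 0.0909 without aged library 3, 4 or 5, 0.0649 without young library 1, 4 or 7 and 0.0519 without young library 2, 3, 5 or 6. It was 0.0455 without aged library 1 and 0.0182 without aged library 2. The difference lay between −2.44 and −1.63 over these 12 settings.

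The other ratios did not pass. Cybb per length came to 9.85%, 10.2%, 24.4%, 13.5% and 55.4% of Cyba in aged libraries 1 to 5, against between 4.07% and 32.2% in young libraries (difference of log2 ratios 0.72, exact two-sided permutation p = 0.263, adjusted p = 0.263). Cybb was thus below Cyba in all 12 libraries. The difference was 0.31 without aged library 5, 0.48 without young library 1 and 1.13 with aged libraries 1, 3 and 4 left out. The log2 ratio of Ncf4 to Ncf1 was −1.82 ± 3.26 in aged libraries and 1.19 ± 1.51 in young ones (SD), a difference of −3.01 (exact two-sided permutation p = 0.0682, adjusted p = 0.102). By the same exact permutation test the adjusted p ranged from 0.0455 to 0.245 over the single libraries left out, and it passed only without aged library 1 (difference −3.85). The difference was −1.81 without aged library 4 (exact permutation, adjusted p = 0.245) and −1.43 with aged libraries 1, 3 and 4 left out (exact permutation, adjusted p = 0.278). The latter setting again had too few arrangements to reach 0.05. In aged library 4 this log2 ratio was −6.64, on 6 counts of Ncf4.

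**Figure D3:**
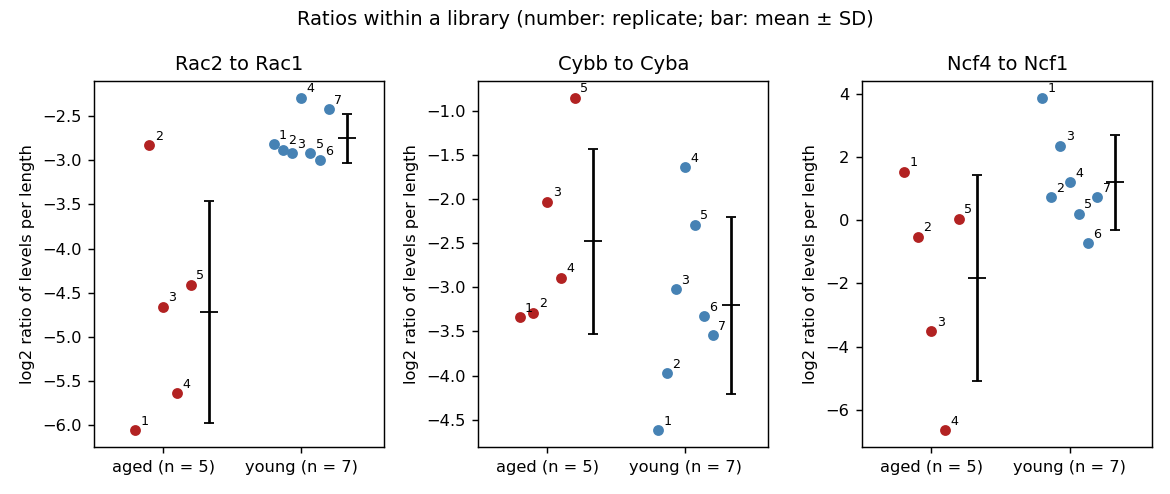
Log2 ratio of levels per length (vertical axis) for Rac2 to Rac1, Cybb to Cyba and Ncf4 to Ncf1 in each aged and young library, with replicate numbers and the mean ± SD as a bar. In the Rac panel the 7 young libraries lie between −3.0 and −2.29 and aged libraries 1, 3, 4 and 5 lie between −6.06 and −4.41.

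Levels were compared between genes only per length, as the deposited FPKM (fragments per kilobase of transcript, scaled to the library total). Cyba was the highest of the 6, at 453 ± 209 FPKM in aged libraries and 858 ± 242 in young ones, and ranked 163 of the 9550 tested genes by its mean. Rac1 followed at 265 ± 85.6 against 248 ± 64.6 FPKM (rank 462) and Cybb at 81.0 ± 36.9 against 96.9 ± 39.7 FPKM (rank 1046). The lower 3 were Ncf4 at 12.96 ± 11.5 against 37.3 ± 17.4, Rac2 at 12.6 ± 9.78 against 37.4 ± 11.8 and Ncf1 at 21.5 ± 10.5 against 17.7 ± 9.29 FPKM, aged against young in each case (ranks 2337, 2344 and 2837).

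Within aged libraries the FPKM of Cyba and Rac1 overlapped, those of Rac1 and Cybb did not, and Ncf1, Ncf4 and Rac2 overlapped below Cybb. In the young libraries Cyba, Rac1 and Cybb were each apart from the next, since the lowest Cyba value of 509 FPKM exceeded the highest Rac1 value of 367, and the lowest Rac1 value of 180 exceeded the highest Cybb value of 162. The lowest young Cybb value, 44.6 FPKM, was under the highest of Ncf4 (69.7) and of Rac2 (58.0). The transcript length that counts and FPKM imply was steady for Rac2 (2967 to 3028 bases) and wider for Ncf1 (2143 to 2709) and Ncf4 (1161 to 1399), so levels per length of the last pair carry that added uncertainty.

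**Figure D4:**
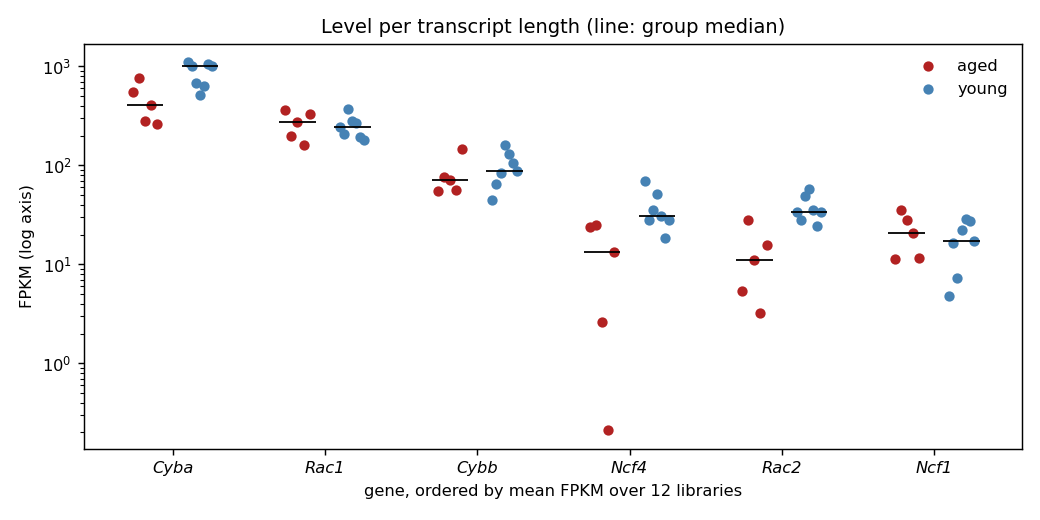
FPKM of the 6 oxidase genes in each library on a log axis, aged left of young, with the group median as a line and genes ordered by their mean over 12 libraries. Cyba and Rac1 lead in both groups, and Ncf4 and Rac2 have their lowest values, 0.21 and 3.2 FPKM, in aged library 4.

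The genes also differed in how far they varied within an age. Rac2 had a coefficient of variation of 75.0% in aged and 24.3% in young libraries, and Ncf4 of 94.7% against 55.1%. Rac1 varied by 30.7% against 24.5%, Cybb by 32.7% against 29.9%, Cyba by 43.6% against 37.0% and Ncf1 by 54.4% against 48.8%. The median over all tested genes, not matched on level, was 86.6% in aged and 72.8% in young libraries.

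Among the 7 young libraries no relation between a pair of oxidase genes passed the test. Of the 15 pairs, 5 had a positive Pearson r of log2(normalised CPM + 1), the range was −0.819 to 0.747, and p-values were adjusted over the 15. Cybb and Cyba had a negative coefficient (r = −0.762, exact permutation p = 0.0466, adjusted p = 0.215; Spearman coefficient −0.857, exact permutation p = 0.0238, adjusted p = 0.33). Without the 2 libraries farthest from the median of Cybb, r was −0.434 over the 5 that remain, a value that the narrower range of Cybb also lowers. Ncf1 and Ncf4 also had a negative coefficient (r = −0.819, exact permutation p = 0.0115, adjusted p = 0.172; Spearman coefficient −0.643, exact permutation p = 0.139, adjusted p = 0.417), with r at −0.708 without the 2 farthest libraries.

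Over all 12 libraries the genes most like each member were ranked by Spearman coefficient among the tested genes with a mean of at least 50 normalised CPM (2659, or 2660 for Ncf4). This is a description over libraries that differ in age. Cyba was closest to Lyz2, which encodes lysozyme, and to Ndufs7, a complex I subunit (coefficient 0.965 for both), and Vkorc1 followed at 0.958. Rac2 and Ncf4 shared their closest gene, Sirpa, which encodes an inhibitory receptor of phagocytes (coefficient 0.923 with Rac2 and 0.888 with Ncf4). Rac2 itself was second closest to Ncf4 (coefficient 0.832), before Yif1a at 0.804, and Glmp (0.909) and Fh1 (0.867) followed for Rac2. Sirpa was at 91.8 ± 32.2 normalised CPM in aged libraries and 182.5 ± 48.5 in young ones (log2 fold change −0.99, adjusted p = 0.36 with edgeR). Cybb was closest to Fam120a (0.923), Pacsin2 (0.888) and Txnip (0.825), and Ncf1 to the lectin receptor gene Clec12a (0.944), Azi2 (0.881) and Pcmtd1 (0.867). Rac1 was closest to Cxcr3 (0.853), Ifi209 (0.832) and Rbm5 (0.825).

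The wider pathway was read from 8 lists of genes that activate, regulate or accompany the oxidase, 137 genes without the 6, of which 106 were tested. None of the 106 passed with edgeR, 49 log2 fold changes were positive and 57 negative, and the median was −0.08. At an unadjusted p under 0.05 there were 4 higher and 4 lower in aged libraries, against 3.85% and 2.12% of all tested genes. DESeq2 on the same genes and edgeR with legacy=FALSE each called 1 of them, Actr2 (1.27% and 0.398% of all genes called), and limma with voom weights called 0.

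In the list of other oxidase components 3 of 6 tested genes were positive. Rap1b, a small GTPase related to a protein found with the membrane subunits, was at 938 ± 272 normalised CPM in aged libraries and 577.5 ± 143 in young ones (log2 fold change 0.70, adjusted p = 0.422, edgeR). Of 17 tested Rac activators and inhibitors 7 were positive (median −0.20). Arhgap15, a GTPase-activating protein that turns Rac off, was at 300.4 ± 110 against 127 ± 60.5 normalised CPM, aged against young, without overlap of the groups, as 0.597% of all tested genes were. Its log2 fold change was 1.24 ± 0.35 and its adjusted p 0.289 with edgeR. Elmo1, part of a Rac exchange factor with Dock proteins, was at 16.3 ± 9.28 against 36.5 ± 21.2 normalised CPM.

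The kinases and lipid enzymes that prime the cytosolic subunits were divided 13 to 13 (median 0.04). Prkcb, a protein kinase C isoform, was at 83.0 ± 45.4 normalised CPM in aged libraries and 49.5 ± 18.1 in young ones, and Plcg2, a phospholipase, at 16.8 ± 16.1 against 29.5 ± 12.4. The receptors that trigger the oxidase were divided 7 to 7 (median −0.02). Itgb2, the beta chain of the phagocyte integrins, was at 66.1 ± 23.3 against 39.3 ± 18.8 normalised CPM, and the pattern receptor Tlr2 at 39.6 ± 34.6 against 105 ± 43.9 (log2 fold change −1.41, adjusted p = 0.589, edgeR).

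Of 11 tested transcription factors that bind oxidase promoters 4 were positive (median −0.16). Cebpa was at 111 ± 47.9 normalised CPM in aged libraries and 84.9 ± 40.2 in young ones and Irf1 at 35.6 ± 37.7 against 64.4 ± 34.0. Of 10 enzymes that make or remove superoxide and related oxidants 5 were positive (median −0.03). The peroxiredoxin gene Prdx1 was at 1251 ± 229 against 1122 ± 174 normalised CPM and the mitochondrial superoxide dismutase gene Sod2 at 45.2 ± 29.8 against 80.6 ± 56.2.

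Rac effectors in actin remodelling had 6 positive members of 16 (median −0.09). Actr2, an Arp complex subunit that starts actin branches, was at 2398 ± 1133 normalised CPM in aged libraries and 1142 ± 279 in young ones. Its log2 fold change was 1.07 ± 0.28 and its adjusted p 0.277 with edgeR. It passed with legacy=FALSE (0.0472), by DESeq2 (0.0345) and without aged library 2 (0.0224, where 0.755% of genes were called). With aged libraries 1, 3 and 4 left out its log2 fold change was 0.12 and did not pass (adjusted p = 1.0, edgeR). Coro1a, an actin regulator of blood cells, had a mean of 22.1 ± 15.6 normalised CPM in aged libraries and 41.4 ± 6.92 in young ones.

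Other pathway genes also moved by over 1.5 times with aged libraries 1, 3 and 4 left out, and none was called there or before. Log2 fold changes nearer to 0 were found for Rap1b (0.21 in place of 0.70), Tlr2 (−0.62 in place of −1.41), Prkcb (0.21 in place of 0.74), Sod2 (−0.19 in place of −0.83) and Coro1a (−0.31 in place of −0.91), and Prdx1 turned to −0.01. Those farther from 0 were found for Irf1 (−1.54 in place of −0.86), Cebpa (0.69 in place of 0.39) and Plcg2 (−1.28 in place of −0.81).

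**Figure D5:**
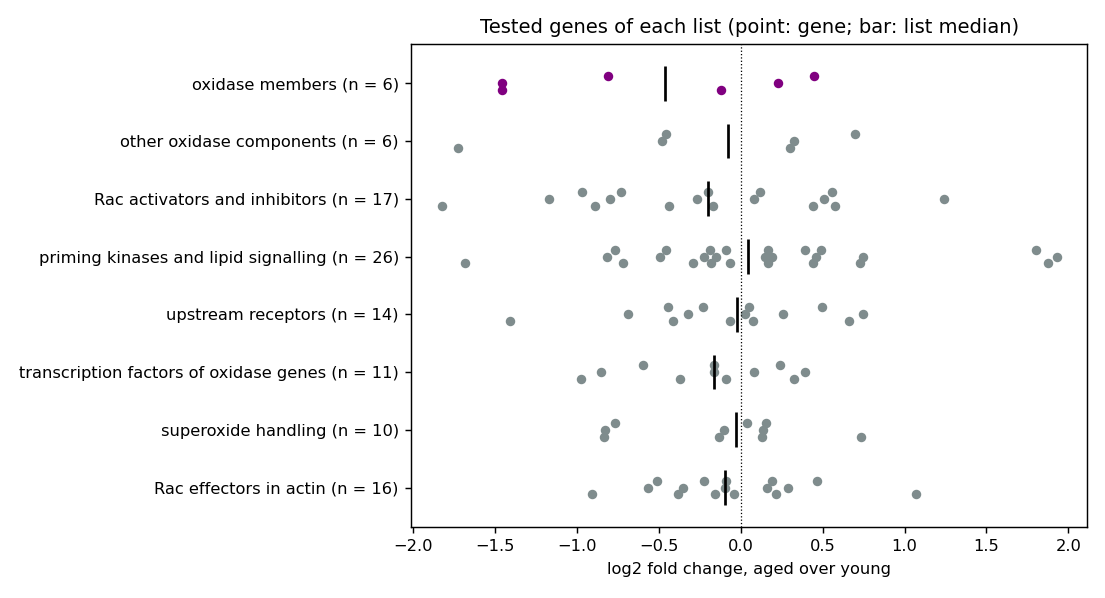
Log2 fold change, aged over young (horizontal axis), of each tested gene in the 6 oxidase members and 7 of the 8 lists of related genes, with the list median as a bar. The member median lies at −0.46 and the medians of the 7 lists lie between −0.20 and 0.04.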

How the data were processed

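RNA was profiled by SMART-seq2, with oligo-dT priming and Nextera XT libraries sequenced as DNA nanoballs, per the labels' protocols. The authors deposited 1 table of estimated counts and of normalised values. The submitters' processing notes list RSEM 1.2.12, HISAT2 2.0.4, DESeq2 1.4.5 and Bowtie2 2.2.5 and the GRCm38 (mm10) build, with no role or order. The gene annotation used was not given in the sources used here. The deposited estimated counts were whole numbers for 88.2% to 90.6% of the genes of a library, and all were rounded. The deposited normalised values carry no named unit and were read as FPKM, because counts divided by them and by library size give plausible transcript lengths (median 2565 bases). The authors' group means were only checked against the library columns. Intervals were not used, and 3 counts, the floor of a library, correspond to between 0.098 and 0.129 CPM by library total, which covers counting error only since reads carry no molecular identifiers. Every pair of libraries differed by more than counting error (chi-square divided by its degrees of freedom at least 281.9).

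Aged and young libraries were compared over all genes with edgeR 4.0.16 in R 4.3.3 (TMM, filterByExpr on group, robust quasi-likelihood fit with legacy=TRUE), with Benjamini-Hochberg adjustment and a threshold of 0.05. A positive log2 fold change means higher in aged. SE were derived from the F statistic. DESeq2 1.42.0, limma 3.58.1, other scaling and filters and libraries left out were alternatives. The fit was tested on simulated data. Ratios used counts plus 0.5 per median implied length. Gene positions and promoters are from RefSeq GRCm38.p6, which matched 17244 of the table's identifiers, and overlaps from GENCODE.

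The genes, lists and tests were chosen with earlier results of these data known. Besides the 6 genes, the text names in each pathway list the tested genes with the highest and lowest log2 fold change at a mean of at least 20 normalised CPM, any gene past the threshold, and the 3 genes most like each member. Some genes and a list that this rule covers are not reported here. Spi1, Irf8, overlapping genes and cell type markers are named for their roles.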

Additional observations from a re-analysis of the deposited data

Results flagged for a closer look

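In 50 groups of libraries (levels of the oxidase genes and of the named pathway genes, and the 3 ratios), a single library lay far from its group in 9. By the gap test used (Dixon's), chance alone singles out a library in about 1 in 20 such groups if values are normally distributed. Whether these levels are was not tested, and all 9 lay above the rest of their group, so 9 cannot be set against that rate. Among the oxidase genes the library singled out was young library 1 for Ncf4, at 102 normalised CPM against 21.1 to 52.6 in the other young libraries. Among pathway genes Arhgap15 was at 492 in aged library 3 against 222 to 284 in the other aged libraries, and Prdx1 at 1652 in aged library 4 against 1083 to 1215. Sod2 was at 97.2 in aged library 2 against 27.0 to 43.6 in the other aged libraries. Cebpa was at 194 in aged library 5 against 73.8 to 103 and at 168.5 in young library 4 against 52.2 to 102. Irf1 was at 99.9 in aged library 1 against 3.16 to 30.5 and at 135 in young library 4 against 32.0 to 69.2. Rhog was at 266 in young library 3 against 57.7 to 128. All values are normalised CPM.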

How the results depend on the processing

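The number of genes called over the whole table, 1 by edgeR as described, was 13 with no filter on low counts, 38 with edgeR legacy=FALSE, 121 with DESeq2 (64 higher and 57 lower in aged libraries), 3 with limma-trend on log2(FPKM + 1) and 0 without aged libraries 1, 3 and 4. It was 393 with DESeq2 and no filter, an alternative chosen after seeing the data, where 1 oxidase gene (Rac2) and 3 pathway genes (Actr2, Arhgap15 and Rhoj) were called. It ranged from 0 to 75 over the single libraries left out, and pathway calls from 0 to 1. Pathway calls were 1 with legacy=FALSE and 1 with DESeq2. The difference of the log2 Rac2 to Rac1 ratio ran from −2.44 to −1.63 with any single library omitted and was −0.865 without aged libraries 1, 3 and 4. That of Ncf4 to Ncf1 ran from −3.85 to −1.81 and was −1.43, and that of Cybb to Cyba ran from 0.31 to 0.978 and was 1.13, under the same omissions. Signs turned for Cybb (0.185) and Prdx1 (−0.00716) without aged libraries 1, 3 and 4 and for Prkcb (−0.00521) on the FPKM scale. The cause was not tested. With the replicate number as a block, 1 gene was called and no oxidase gene, with Rac2 at −1.88 and Ncf4 at −2.45. Same-numbered libraries deviated from their group means with correlations from −0.028 to 0.097, so the numbers were not taken as pairs. Ncf4 in aged library 4, at 6 counts, was the lowest count behind a value of the 6 genes.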
